A study of Mus musculus with 20 samples.

Results

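The chromatin-modifying enzyme families described here comprised 60 of the 46078 genes in the counts table of this TRAP–seq series. They were chosen by symbol alone, as the autosomal protein-coding genes named Hdac, Sirt, Kdm, Kmt2, Kat, Cbx, Ezh, Dnmt or Tet with a number of the family. These were 9 histone deacetylases (Hdac), 7 sirtuins, 14 lysine demethylases (Kdm), 5 Kmt2 methyltransferases, 7 lysine acetyltransferases (Kat), 8 chromobox proteins (Cbx), 2 Ezh methyltransferases, 5 DNA methyltransferases (Dnmt) and 3 Tet dioxygenases. The rule left out 5 relatives on the sex chromosomes (Hdac6, Hdac8, Kdm5c, Kdm6a and Kdm5d). Of the 60 members, 59 were among the 21464 genes with enough counts to be tested, and Dnmt3c, a DNA methyltransferase of the male germ line, was not.

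Histone tails carry marks that these enzymes write, erase or read. Acetyl groups are added by Kat enzymes at open, active chromatin and removed by Hdac enzymes and sirtuins, the latter depending on NAD+ and some of them acting in mitochondria. Kmt2 enzymes write H3K4 methylation at promoters and enhancers, Ezh1 and Ezh2 write the repressive mark H3K27me3 within PRC2, Kdm enzymes erase lysine methylation, and Cbx proteins read methylated H3K9 or H3K27. Dnmt enzymes methylate cytosine in DNA, and Tet enzymes oxidize the methyl group as a step towards its removal.

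TRAP–seq sequences the mRNA attached to tagged ribosomes of 1 cell type. All mice were AdipoERCre x NuTRAP animals on the background the labels spell C576BL6 that had received tamoxifen, controls included, so that Cre under the adiponectin promoter switched on GFP-tagged ribosomes in adipocytes, which were pulled down from epididymal adipose tissue (epiAT). In the short arm, mice were fed high-fat diet (HFD) for 12 weeks (H) or chow (C) and were 18 weeks old, or 26 weeks old after another 8 weeks on chow (HC after HFD, CC_s after chow only), with 3 mice per group. In the long arm, HFD lasted 25 weeks in HH mice, which were 31 weeks old like their chow controls CC_l, and HHC mice, aged 39 weeks like their controls CCC, then spent 8 weeks on chow, with 2 mice per group. Each HFD or weight loss (WL) group was compared with the chow group of its own arm and age, because the library codes of the arms begin differently in the labels.

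Counts on genes totalled 10710277 to 36738954 per library, and a count of 0 allowed up to 0.0815 to 0.251 CPM (3 counts, counting error only). CPM, the unit of level here, are counts scaled by TMM-normalized library size. The adipocyte gene Adipoq was present in every library at 492 to 8794 CPM. The summed level of 7 macrophage markers was 482 to 2833 CPM in H and 183 to 334 CPM in C, and 2777 to 3623 CPM in HH and 171 to 322 CPM in CC_l. Of these 7 markers, 4 passed the threshold in H, 4 in HC, 7 in HH and 0 in HHC, all upwards, and none was at 0 in every library of a group. Among libraries that stood apart, C replicates 1 and 2, HC replicate 3 and CCC replicate 2 held 17690 to 28933 CPM of Malat1, a nuclear-retained RNA, against at most 11803 CPM in the other 16. CC_l replicate 1 held 752 CPM of the spermatid gene Tnp2, against at most 68.2 CPM elsewhere. In pulled-down bulk RNA, fewer cells of a type and less RNA per cell cannot be told apart.

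RefSeq promoter sequences (GRCm38.p6, the assembly that mm10 names) were matched for 46 of the 60 members, with 70 start sites. In the 250 bases before the start, read on both strands, the GC-box core GGGCGG was found in 43 of the 70 (61.4%) and in 32.7% of all 32851 promoters of the table. The TATA-box letters TATAAA stood in 1 of the 70 (1.43%) and in 12.4% of all promoters, and that promoter was the outer start of Hdac9. CCAAT was found in 34.3% of the member promoters and 33.8% of all. The E-box CACGTG was found in 11.4% and 6.02%, the ETS-type CCGGAAG in 8.57% and 6.91%, and the NRF1-type TGCGCA in 14.3% and 6.43%. No motif of the 6 contains another, and a match describes the letters and not binding. The sequences shown belong to 4 members called in H, as the longest stretch before the start that no annotated exon covers, with motif matches in capitals. In the GENCODE annotation no gene covers the Hdac9 stretch, the Cbx7 and Kat2b stretches overlap the spans of their own genes outside exons, and the Kdm1b stretch overlaps the span of the neighbouring gene Tpmt outside its exons.
Hdac9, outer start, chr12:34917096-34917345, minus strand: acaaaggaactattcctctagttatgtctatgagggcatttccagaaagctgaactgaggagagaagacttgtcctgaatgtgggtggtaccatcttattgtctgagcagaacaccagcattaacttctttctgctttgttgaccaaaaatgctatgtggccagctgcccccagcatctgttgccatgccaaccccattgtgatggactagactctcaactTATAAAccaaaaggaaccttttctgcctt
Cbx7, chr15:79932769-79932896, minus strand: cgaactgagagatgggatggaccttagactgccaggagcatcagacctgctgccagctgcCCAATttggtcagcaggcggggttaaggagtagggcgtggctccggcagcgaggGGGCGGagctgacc
Kdm1b, chr13:47043344-47043498, plus strand: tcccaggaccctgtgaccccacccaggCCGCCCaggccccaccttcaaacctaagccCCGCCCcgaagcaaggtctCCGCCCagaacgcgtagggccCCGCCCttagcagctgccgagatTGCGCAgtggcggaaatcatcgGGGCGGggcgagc
Kat2b, inner start, chr17:53583876-53584125, plus strand: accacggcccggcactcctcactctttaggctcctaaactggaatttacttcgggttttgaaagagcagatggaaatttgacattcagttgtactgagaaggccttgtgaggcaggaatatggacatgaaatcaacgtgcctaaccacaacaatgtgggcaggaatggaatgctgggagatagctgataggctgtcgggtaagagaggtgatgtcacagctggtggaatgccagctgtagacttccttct
In the Hdac9 window TATAAA began 29 bases before the start and the window held 0 CpG dinucleotides. The stretch before the inner Hdac9 start (chr12:34528890-34529139, not printed) held no motif match and 2 CpG. The Kdm1b window held 5 copies of GGGCGG on either strand and 13 CpG in 155 bases. Cbx7 showed 1 CCAAT and 1 GGGCGG, and the inner Kat2b window showed none of the 6 motifs.

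To ask how much of each family adipocyte ribosomes carried, levels were divided by exon length, which makes genes comparable. Per kb of exon, 43 of the 60 members lay above the median tested gene (1.89 CPM per kb). The highest were Hdac3, the catalytic subunit of the NCoR/SMRT corepressors, at 18.2 CPM per kb, Kat2b (PCAF), a histone H3 acetyltransferase, at 17.3, Hdac2 at 15.03 and Kmt2e, a Kmt2 family protein that reads H3K4me3, at 14.8. Ranges over the 20 libraries overlapped between these 4 genes, so their order was not separated. At the low end were Tet1 at 0.138 CPM per kb, Cbx2 at 0.337, Kdm2b at 0.3895 and Kdm4d at 0.396, and Dnmt3c had a count in 1 library only. Within families, Ezh1, the Ezh enzyme of resting tissue, stood at 6.98 CPM per kb and Ezh2, that of dividing cells, at 1.66, and their ranges did not overlap. Sirt2, a cytoplasmic deacetylase, led the sirtuins at 7.32 and Sirt6, a nuclear one, was lowest at 1.25. Among the heterochromatin protein 1 genes, Cbx5 (10.02) and Cbx1 (9.89) stood above Cbx3 (3.71 CPM per kb), and Cbx3 reached at most 7.55 CPM per kb, below the lowest Cbx1 library at 7.74. Cbx1 was also the steadiest member, with a coefficient of variation of 14.2% over all libraries. Dnmt3a, which sets DNA methylation de novo, was the highest DNA methyltransferase at 5.11 CPM per kb, and Tet3 the highest Tet gene at 3.26.

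**Figure D1:**
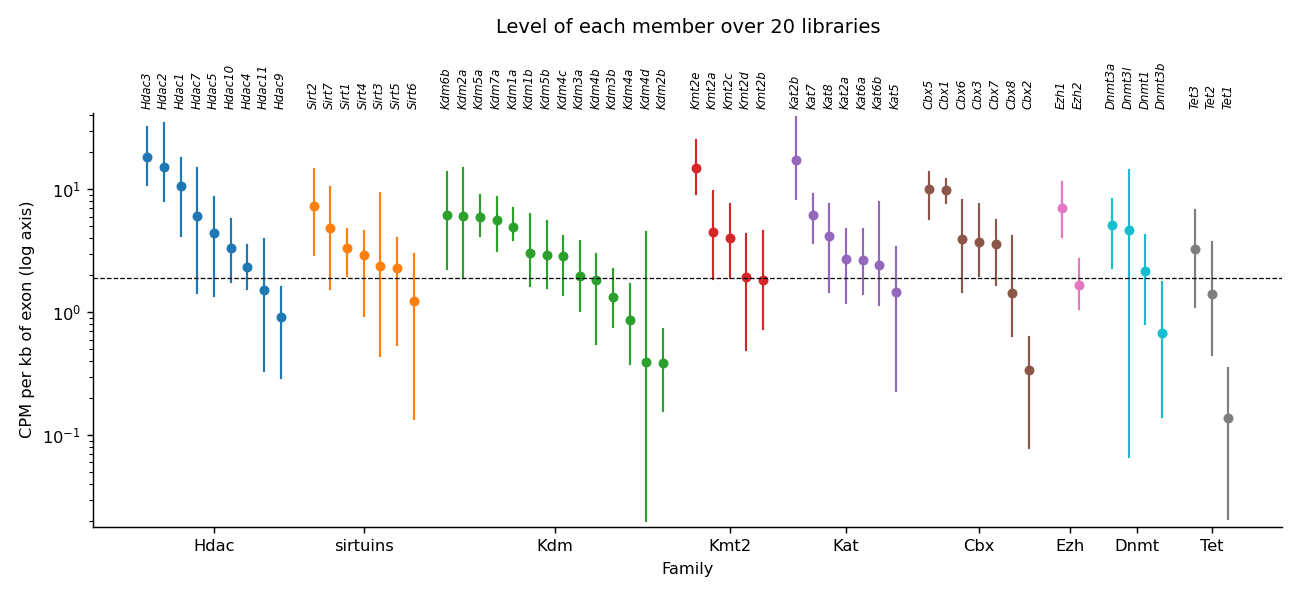
Level of members in CPM per kb of exon on a log axis, ordered by mean within each family; points are means and lines run from the lowest to the highest of the 20 libraries (a line that reaches the axis ends below 0.02 or at 0), and the dashed line is the median tested gene, 1.89 CPM per kb. Hdac3, Kat2b, Hdac2 and Kmt2e lead, Tet1 is the lowest tested member, and Dnmt3c is not drawn.

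To ask which members differed with diet, each HFD or WL group was tested against its own chow control with edgeR's quasi-likelihood test, and a member was called where its nominal p lay below 0.01 and it differed at least 2-fold in either direction. In H, 5 of the 59 tested members were called, against 6.49% of all tested genes. Among them Hdac9 rose, and Cbx7, Kat2b and Kdm1b fell. In HC, 0 members were called by edgeR and 0 by DESeq2, against 1.74% of all genes in edgeR and 727 of 21464 in DESeq2. In edgeR, 2 members (Sirt7 and Kat2b) had a nominal p under 0.05 in HC. In HH, 2 members were called, against 6.79% of all genes, as Hdac9 rose and Cbx7 fell. In HHC, 2 members were called, against 3.12% of all genes, both downwards, namely Sirt7 and Kat6b. The median log2 fold change of the members was -0.17 on short HFD and 0.17 after it, beside -0.15 and 0.27 over all tested genes. In the long arm it was -0.10 on HFD and -0.17 after it, beside -0.23 and -0.06. A nominal p under 0.05 was found for 9 members in H (among them Hdac9, Kdm1b, Kdm2a, Kdm7a, Kat2b, Kat5, Cbx7 and Dnmt1) and in 17.1% of all genes. In HC these were 2 members and 8.69% of all genes. In HH they were 6 members (Hdac9, Hdac11, Kdm3b, Kdm4d, Kat8 and Cbx7) and 17.4% of all genes, and in HHC 6 members (Hdac9, Hdac10, Sirt7, Kdm4c, Kat6b and Tet1) and 10.7% of all genes. Benjamini-Hochberg adjusted p-values over all genes were under 0.05 for 3 members, all in H (Hdac9, Cbx7 and Kat2b), against 2.12% of all genes there and 2.07% in HH. In H and HC, 32 of the 59 members (54.2%) differed from control in the same direction, the share found over all genes (54.2%), and in HH and HHC 26 did (44.1%, against 45.3% of all genes).

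**Figure D2:**
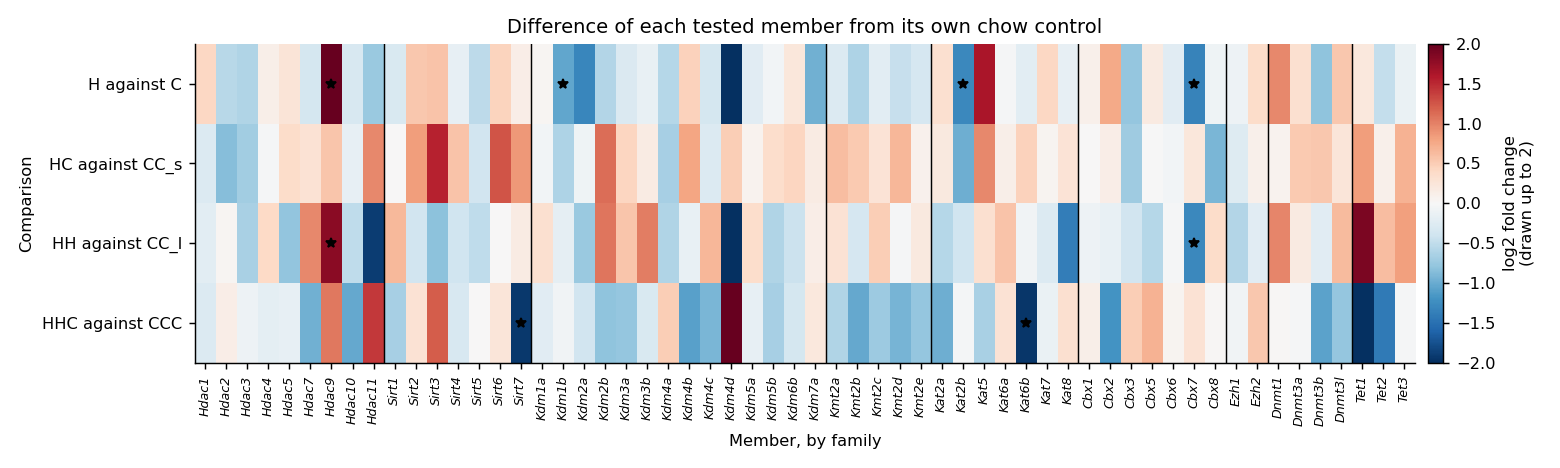
Log2 fold change of tested members (columns, by family) against their own chow control in the 4 comparisons (rows); colours are drawn up to 2 in either direction and stars mark called members. Stars stand at Hdac9, Kdm1b, Kat2b and Cbx7 in H, at Hdac9 and Cbx7 in HH, and at Sirt7 and Kat6b in HHC.

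Among the histone deacetylases, Hdac9 stood apart. Hdac9 is a class IIa deacetylase that binds MEF2 factors and is known as a brake on adipocyte differentiation. Its level was 4.25, 5.26 and 5.95 CPM in the C mice and 21.9, 20.8 and 21.01 CPM in the H mice. All H mice were thus above all C mice, and Hdac9 rose 4.12-fold (log2 fold change 2.04 ± 0.38 (SE), adjusted p = 0.0111 in edgeR's quasi-likelihood test). In the long arm the level was 5.29 and 5.24 CPM in CC_l and 13.3 and 23.6 CPM in HH. The groups did not overlap and Hdac9 rose by a log2 fold change of 1.80 ± 0.47 (SE), with an adjusted p of 0.0533 in edgeR. This call was lost without CC_l replicate 1 (1.82), CC_l replicate 2 (1.82) or HH replicate 2 (1.35 on the log2 scale), whereas no single mouse took the call in H. After WL the levels were 20.4, 22.2 and 10.99 CPM in HC and 18.9 and 14.5 CPM in HHC, beside 16.9, 7.699 and 12.04 CPM in CC_s and 9.55 and 6.53 CPM in CCC. Both HHC mice lay above both CCC mice (log2 fold change 1.06 ± 0.46 (SE), adjusted p = 0.418 in edgeR), whereas the HC and CC_s mice overlapped (0.55 ± 0.37 (SE)), and neither difference was called. The CC_s controls at 7.699 to 16.9 CPM lay above the C controls at 4.25 to 5.95 CPM. The effect in HC was smaller than that in H by 1.49 on the log2 scale, a difference with a nominal p of 0.011 and an adjusted p of 0.337 in edgeR's interaction test. Macrophage and endothelial markers moved with Hdac9 on HFD (summed endothelial level 1001 to 1476 CPM in H and 220.2 to 498 CPM in C, 3 of 5 markers past the threshold). In HH the endothelial sum was 658 to 1199.5 CPM and in CC_l 116 to 131 CPM, with 5 of 5 past it. The summed level of 6 adipocyte progenitor markers was 3147 to 4318 CPM in HH and 396 to 598 CPM in CC_l, with 4 of 6 past it, and 1 of 6 was past it in H. The part of these cells in the Hdac9 level was not tested.

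No other histone deacetylase was called against its own control in the 4 comparisons. Hdac1 and Hdac2, the catalytic pair of the Sin3, NuRD and CoREST complexes, had log2 fold changes of 0.42 and -0.55 in H and -0.22 and 0.04 in HH. Hdac3 was at 91.3, 76.1 and 43.97 CPM in HC, below all CC_s mice at 98.3, 114 and 129 CPM, with a log2 fold change of -0.69 ± 0.35 (SE) and an adjusted p of 0.585 in edgeR. Hdac2 was likewise at 62.7, 63.4 and 39.2 CPM in HC and 116, 92.96 and 90.2 CPM in CC_s, without overlap (-0.86 ± 0.42 (SE), adjusted p = 0.579 in edgeR). These groups do not overlap for 13.8% of all tested genes. Hdac11, the only class IV deacetylase, varied in the long arm, at 15.2 and 5.76 CPM in CC_l, 1.28 and 4.36 CPM in HH, 2.03 and 4.004 CPM in CCC and 3.52 and 12.6 CPM in HHC. Its log2 fold change was -1.90 ± 0.74 (SE) in HH (adjusted p = 0.201 in edgeR) and 1.42 ± 0.73 (SE) in HHC. The highest values were those of CC_l replicate 1, the library with spermatid transcripts, and of HHC replicate 2. In fits without 1 mouse the log2 fold change in HH ran from -3.01 to -1.02. The interaction of 3.31 had an adjusted p of 0.133 in edgeR and passed the nominal rule with the fold threshold. Hdac10, a polyamine deacetylase, was at 7.37 and 7.97 CPM in HHC and 11.9 and 19.3 CPM in CCC (adjusted p = 0.443 in edgeR). The class IIa deacetylases Hdac4, Hdac5 and Hdac7 had log2 fold changes of 0.11, 0.26 and -0.34 in H and 0.40, -0.79 and 0.96 in HH. Opposite-strand genes overlap 22.4% of the exon bases of Hdac4.

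Sirtuins remove acyl groups at the expense of NAD+, with Sirt1, Sirt6 and Sirt7 in the nucleus, Sirt2 in the cytoplasm and Sirt3, Sirt4 and Sirt5 in mitochondria. None was called on HFD in either arm, and log2 fold changes lay between -0.52 (Sirt5) and 0.57 (Sirt3) in H and between -0.83 (Sirt3) and 0.65 (Sirt1) in HH. In HC, Sirt2, Sirt3, Sirt4, Sirt6 and Sirt7 had log2 fold changes of 0.83, 1.54, 0.58, 1.26 and 0.87. Sirt5 was lower at -0.38, and Sirt1 had a mean of 16.5 CPM in both HC and CC_s. The family median was 0.83 beside 0.27 over all genes. Sirt3 was highest there at 1.54 ± 0.81 (SE), which rested on HC replicate 1 at 55.8 CPM against 11.9 and 2.62 CPM in the other HC mice and 3.84, 11.5 and 8.87 CPM in CC_s. HC replicate 1 was also the highest HC mouse for Sirt2 (73.2 CPM), Sirt4 (10.3 CPM) and Sirt6 (5.77 CPM). The summed sirtuin level was 43.03 CPM per kb in it, 21.6 and 18.4 in HC replicates 2 and 3, and 14.8 to 21.4 in CC_s. The exons of Sirt3 overlap genes on the opposite strand over 12.7% of their bases, and the strand setting of the counting is not stated.

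Sirt7, which removes an acetyl group from H3K18 and acts on ribosomal DNA, was the sirtuin with a call. In HHC its level was 13.1 and 7.97 CPM, below both CCC mice at 26.8 and 53.3 CPM. Sirt7 fell by 1.93 on the log2 scale (SE 0.49, adjusted p = 0.199 in edgeR). CCC replicate 2, the higher control and one of the libraries with much Malat1, was the highest of all 20 libraries. Without it the log2 fold change was -1.36 and the call was lost, as it was without HHC replicate 2 (-1.62). In the short arm Sirt7 went the other way after WL, at 31.3, 19.9 and 22.6 CPM in HC above all CC_s mice at 11.9, 19.5 and 8.999 CPM (0.87 ± 0.39 (SE), adjusted p = 0.569 in edgeR). The difference between the arms was -2.80 with a nominal p of 0.00031 and an adjusted p of 0.343 in edgeR, an interaction added after the data had been seen. Endothelial and mesothelial markers were also lower in HHC than in CCC, the endothelial sum being 71.04 to 88.5 and 207 to 411 CPM and the mesothelial sum 44.7 to 68.4 and 75.4 to 309 CPM. Of 6 adipocyte progenitor markers, 5 were lower. Markers of other cells went the other way, with 7 of 8 lymphocyte, 5 of 7 macrophage and 4 of 5 proliferating-cell markers higher in HHC. Of the 5 endothelial and 5 mesothelial markers, 1 each was called, and their part in the Sirt7 and Kat6b values was not tested.

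Of the lysine acetyltransferases, Kat2b was the one with calls or near-calls in the short arm. Kat2b acetylates H3K9 as a subunit of the ATAC and PCAF complexes. Its level was 107, 81.03 and 187 CPM in C and 42.8, 51.5 and 59.1 CPM in H. All H mice lay below all C mice, and Kat2b fell by 1.29 on the log2 scale (SE 0.33, adjusted p = 0.0495 in edgeR). After WL it was at 82.7, 61.02 and 51.0 CPM in HC and 139, 123 and 122 CPM in CC_s, again without overlap. The log2 fold change in HC was -0.98 ± 0.32 (SE) with a nominal p of 0.0076, just outside the fold threshold, and an adjusted p of 0.536 in edgeR. In the long arm the levels were 46.6 and 70.4 CPM in CC_l, 40.6 and 48.4 in HH, 95.4 and 94.02 in CCC and 90.8 and 94.5 CPM in HHC. Here HH overlapped CC_l (-0.40 ± 0.39 (SE)) and HHC overlapped CCC (-0.03 ± 0.39 (SE)). Whether the arms differed was not shown, since the interactions had adjusted p-values of 0.855 (HH against H) and 0.465 (HHC against HC) in edgeR. Without C replicate 3 the log2 fold change in H was -0.88 and no longer reached the fold threshold.

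Kat2a (GCN5), the close paralogue of Kat2b, did not follow it, with 9.796, 8.33 and 9.31 CPM in C and 14.9, 9.89 and 9.595 CPM in H (0.33 ± 0.42 (SE)). Kat5 (TIP60), an H4 acetyltransferase, was low in the C mice at 1.85, 2.58 and 0.806 CPM and higher in all H mice at 5.82, 5.73 and 4.702 CPM (1.63 ± 0.67 (SE), adjusted p = 0.222 in edgeR), and its exons overlap an opposite-strand gene over 12.1% of their bases. Kat6a and Kat7, the catalytic subunits of the MOZ and HBO1 complexes, had log2 fold changes of -0.03 and 0.41 in H and 0.57 and -0.28 in HH. Kat8 (MOF), which acetylates H4K16, was at 4.19 and 12.2 CPM in HH and 21.9 and 21.01 CPM in CC_l (adjusted p = 0.275 in edgeR). Kat6b (MORF), an H3K23 acetyltransferase, fell in HHC by 1.94 on the log2 scale (SE 0.50, adjusted p = 0.204 in edgeR). Its levels were 19.3 and 25.7 CPM in HHC and 41.5 and 131 CPM in CCC. CCC replicate 2 was the highest of all libraries, with the next at 58.5 CPM, and without it the log2 fold change was -0.89 and the call was lost, as it was without HHC replicate 1 (-1.75). With the level of nuclear-retained RNA as a covariate it was -1.05, also without a call.

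**Figure D3:**
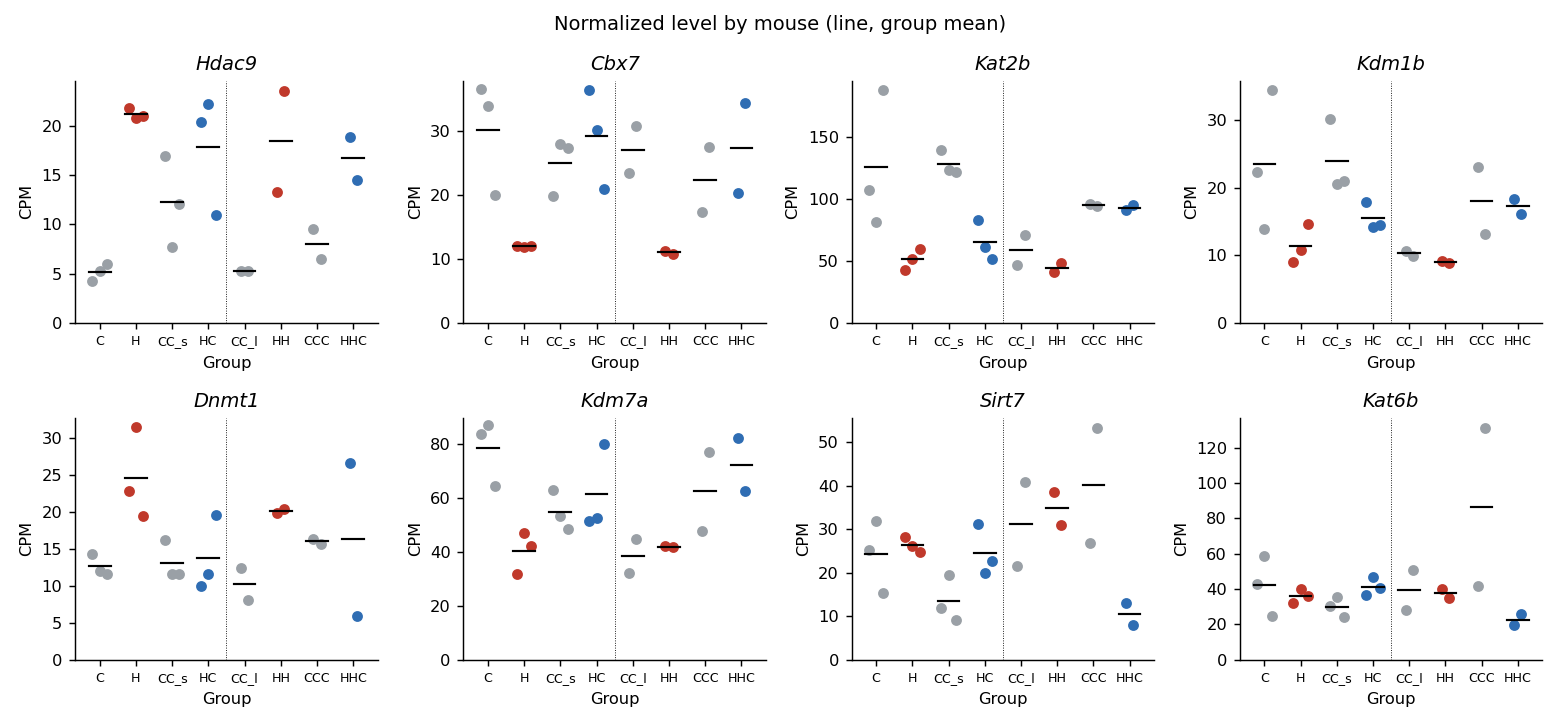
TMM-normalized CPM of 8 members in each mouse by group; grey points are chow controls, red HFD and blue WL mice, black lines are group means, and the dotted line divides the arms. Hdac9 lies above its own controls in H and HH, Cbx7 below them, and the low HHC values of Sirt7 and Kat6b face 1 very high CCC mouse.

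The lysine demethylases held 1 call in 14 tested members. Kdm1b (LSD2), which removes H3K4me1 and H3K4me2 within gene bodies, was at 22.3, 13.9 and 34.5 CPM in C and 8.97, 10.8 and 14.5 CPM in H. The lowest C mouse lay below the highest H mouse, and Kdm1b fell by 1.04 on the log2 scale (SE 0.35, adjusted p = 0.134 in edgeR). This call was at the threshold, and 13 of the 20 fits that left out 1 mouse lost it. After WL Kdm1b was at 17.9, 14.2 and 14.4 CPM in HC, below all CC_s mice at 30.2, 20.5 and 20.9 CPM (-0.62 ± 0.35 (SE), adjusted p = 0.606 in edgeR). In the long arm the levels were 10.6 and 9.95 CPM in CC_l and 9.21 and 8.89 CPM in HH, with a log2 fold change of -0.18 ± 0.43 (SE). Its paralogue Kdm1a (LSD1) stayed within 20.03 to 36.3 CPM in all libraries, with log2 fold changes of 0.04, -0.05, 0.32 and -0.23 in H, HC, HH and HHC.

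Kdm7a, which removes H3K9me2 and H3K27me2, was at 83.6, 87.03 and 64.5 CPM in C and 31.7, 47.1 and 42.2 CPM in H without overlap. Its log2 fold change of -0.96 ± 0.30 (SE) had an adjusted p of 0.102 and missed the fold threshold, and DESeq2 and RLE normalization put it past that threshold at -1.06. Of the 4 libraries with the most Malat1, 3 were among the 4 highest for Kdm7a, including C replicates 1 and 2. Kdm2a, an H3K36 demethylase bound to CpG islands, was at 168, 217 and 69.1 CPM in C and 60.05, 49.96 and 74.03 CPM in H (-1.30 ± 0.55 (SE), adjusted p = 0.237 in edgeR). Its high C mice were replicates 1 and 2, and without the 4 libraries with the most Malat1 the log2 fold change was -0.06. Kdm6b, which removes H3K27me3 and led this family in level at 6.17 CPM per kb, had log2 fold changes of 0.23 in H, 0.43 in HC, -0.43 in HH and -0.36 in HHC. The H3K4 demethylases Kdm5a and Kdm5b had log2 fold changes of -0.22 and -0.06 in H and 0.36 and -0.60 in HH. Kdm5b was at 92.2 CPM in CC_l replicate 1, which held spermatid transcripts, and 45.04 CPM in CC_l replicate 2, beside 50.1 and 40.85 CPM in HH. Kdm3a, an H3K9 demethylase with a known part in adipose thermogenesis, was at -0.29 in H and 0.55 in HH on the same scale. Kdm2b and Kdm4b were at -0.59 and 0.46 in H. Of the H3K9 and H3K36 demethylases, Kdm4a was below control without overlap in H, HC and HH (-0.57, -0.66 and -0.60) and Kdm4c in H, HC and HHC (-0.35, -0.28 and -0.92), none of them called. In HH, Kdm4c lay above control without overlap, at 20.7 and 13.8 CPM against 8.43 and 13.35 CPM in CC_l. Kdm4a in HHC, at 9.38 and 3.55 CPM, overlapped CCC at 4.3 and 4.83 CPM. Groups without overlap were found for 13 of the 59 members and 23.9% of all genes in H, and for 12 members and 13.8% in HC. In HH they were found for 33 members and 55.2%, and in HHC for 16 members and 28.8%. Kdm4d, a testis-enriched relative, was at 12.8 CPM in CC_l replicate 1, the library with spermatid transcripts, and at most 1.94 CPM elsewhere, and its log2 fold change of -5.27 in HH (adjusted p = 0.241 in edgeR) rests on it. Kdm3b, an H3K9 demethylase, was at 25.4 and 20.5 CPM in HH and 11.4 and 11.3 CPM in CC_l (adjusted p = 0.243 in edgeR), with exons that overlap an opposite-strand gene over 24.6% of their bases.

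The 5 Kmt2 genes showed no call but moved together from library to library. Kmt2a (MLL1) and Kmt2b act at promoters, Kmt2c and Kmt2d at enhancers. Their summed level was 35.7 and 45.9 CPM per kb in C replicates 1 and 2, 40.6 in HC replicate 3 and 49.9 CPM per kb in CCC replicate 2. In the other 16 libraries it was 15.8 to 27.6 CPM per kb, so that the 4 libraries with the most Malat1 were also the 4 with the highest Kmt2 sum. All 5 Kmt2 genes had at least 3 of these 4 libraries among their own 4 highest, which held for 17.8% of all tested genes and for 18 of the 60 members (30.0%). Of the 3 Tet genes 2, Tet2 and Tet3, had at least 3 of the 4 libraries among their own 4 highest, and the summed Tet level was 8.15 to 9.54 CPM per kb in the 4 libraries and 1.699 to 7.47 in the other 16. At least 3 of the 4 libraries were also among the 4 highest for Dnmt3a, Dnmt3b, Sirt1, Hdac7, Hdac10, Kdm2a, Kdm2b, Kdm3a, Kdm3b, Kdm5a and Kdm7a. They were among the 4 lowest for Hdac1, Hdac5, Sirt5, Kat7 and Dnmt3l (8.33% of members, 15.2% of all tested genes). Dnmt3l, a catalytically inactive cofactor of de novo methylation, was at 0.198 to 1.98 CPM in the 4 libraries and 3.66 to 42.7 CPM in the others. Of these 4 libraries 3 are chow controls and 1, HC replicate 3, is a WL mouse. All 5 Kmt2 genes were below control in H (median -0.34) and in HHC (-0.77) and above it in HC (0.52). Fits without these 4 libraries are not given for this family, and the part of these libraries in its differences was not tested. By gene, the log2 fold changes of Kmt2a, Kmt2b, Kmt2c, Kmt2d and Kmt2e were -0.27, -0.61, -0.22, -0.47 and -0.34 in H and 0.29, -0.33, 0.49, -0.03 and 0.20 in HH.

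**Figure D4:**
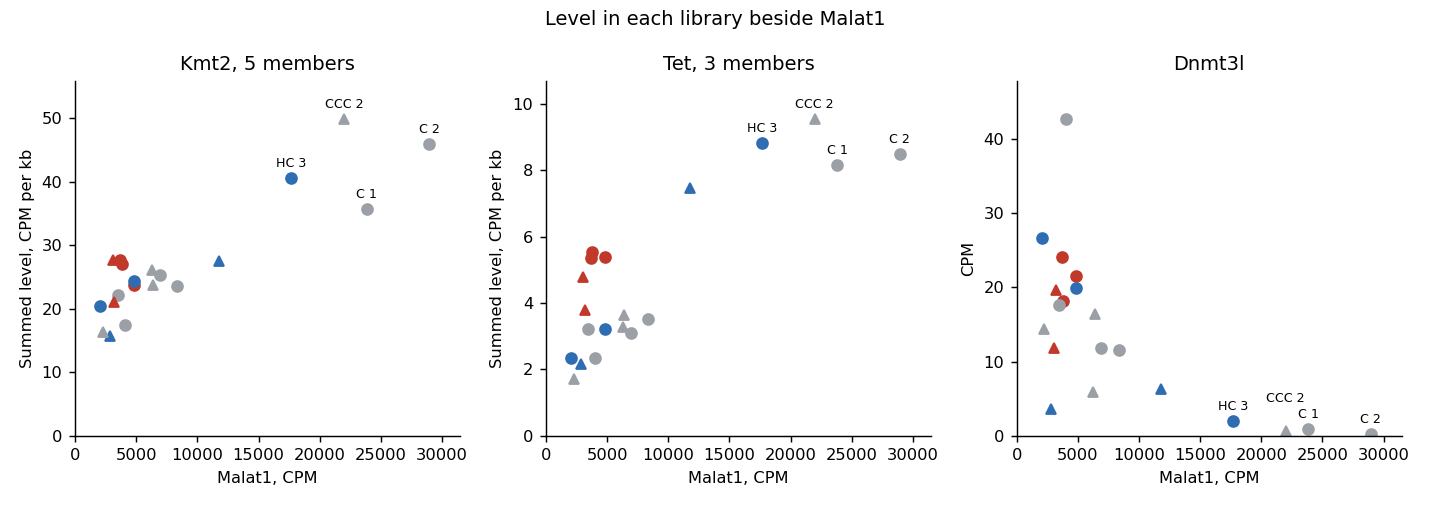
Summed level of the 5 Kmt2 genes and of the 3 Tet genes in CPM per kb and level of Dnmt3l in CPM (vertical axes) against Malat1 in CPM (horizontal axis), 1 point per library; circles are the short and triangles the long arm, grey chow, red HFD and blue WL. C 1, C 2, HC 3 and CCC 2 hold the 4 highest Kmt2 and Tet sums and the 4 lowest Dnmt3l levels.

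Among the chromobox genes, Cbx7 fell on HFD in both arms. Cbx7, a reader of H3K27me3 and a subunit of the canonical PRC1 complex, was at 36.5, 33.9 and 19.97 CPM in C and 12.01, 11.8 and 12.04 CPM in H. The H mice were nearly identical and all below the C mice, and Cbx7 fell by 1.33 on the log2 scale (SE 0.33, adjusted p = 0.0444 in edgeR). In the long arm it was at 23.4 and 30.7 CPM in CC_l and 11.3 and 10.8 CPM in HH, a fall by 1.29 (SE 0.40, adjusted p = 0.108 in edgeR). The call in HH was lost without HH replicate 1 (-1.31), HH replicate 2 (-1.24) or CC_l replicate 2 (-1.06 on the log2 scale), and that in H with no single mouse. The 5 mice on HFD lay at 10.8 to 12.04 CPM, and the other 15 libraries at 17.3 to 36.5 CPM. After WL the levels were 36.3, 30.1 and 20.9 CPM in HC and 19.9, 27.9 and 27.3 CPM in CC_s (0.22 ± 0.32 (SE)), and 20.2 and 34.4 CPM in HHC and 17.3 and 27.4 CPM in CCC (0.29 ± 0.40 (SE)), so that WL and control mice overlapped in both arms. The effect after WL exceeded the effect on HFD by 1.55 ± 0.46 (SE) in the short arm and 1.58 ± 0.56 (SE) in the long arm, with nominal p-values of 0.0035 and 0.012 and adjusted p-values of 0.326 and 0.184 in edgeR. The summed level of 9 adipocyte markers was 26944 to 32151 CPM in HH and 58618 to 60944 CPM in CC_l, with 8 of 9 lower and 1 called, and 31319 to 56255 CPM in H and 27849.6 to 131428 CPM in C, with 1 called higher and 1 lower. The part of these differences in the Cbx7 level was not tested. Without the 4 libraries with the most Malat1, which leaves 1 C mouse, the log2 fold change in H was -0.63 and not called, and that in HH was -1.31.

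Of the other readers of H3K27me3, Cbx2, Cbx6 and Cbx8 had log2 fold changes of 0.76, -0.23 and -0.09 in H and -0.15, -0.02 and 0.37 in HH. The heterochromatin protein 1 genes, which read H3K9 methylation, showed no call, and Cbx1 stayed within 33.1 to 51.4 CPM in all libraries. Cbx5 was below CC_l in both HH mice (-0.57 ± 0.37 (SE)) and above CCC in both HHC mice (0.69 ± 0.37 (SE)). These groups do not overlap for 55.2% of all tested genes in HH and 28.8% in HHC.

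Ezh1 and Ezh2 had no call and no nominal p under 0.05 in any comparison. Ezh1 was at 45.9 ± 12.5 (SD, n = 3) CPM in C and 42.6 ± 10.6 (SD, n = 3) CPM in H, and at 71.9 ± 11.9 (SD, n = 3) CPM in CC_s and 60.3 ± 8.26 (SD, n = 3) CPM in HC. Ezh2 was at 9.58 ± 1.48 (SD, n = 3) CPM in C and 12.3 ± 2.35 (SD, n = 3) CPM in H. Their log2 fold changes were -0.11 ± 0.32 (SE) and 0.36 ± 0.38 (SE) in H, and -0.58 ± 0.40 (SE) and -0.23 ± 0.47 (SE) in HH.

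For DNA methylation, Dnmt1, which copies methylation after replication, was at 14.3, 12.1 and 11.6 CPM in C and 22.9, 31.5 and 19.4 CPM in H, and at 12.3 and 8.05 CPM in CC_l and 19.9 and 20.4 CPM in HH. HFD mice lay above control mice in both arms, with log2 fold changes of 0.96 ± 0.43 (SE) and 0.98 ± 0.53 (SE) and adjusted p-values of 0.269 and 0.348 in edgeR, and neither was called. After WL the log2 fold changes were 0.06 and 0.02. The summed level of 5 markers of proliferating cells was 75.7 to 145 CPM in H and 6.36 to 15.8 CPM in C, with 5 of 5 past the threshold. In HH it was 86.6 to 96.1 CPM, with 5 of 5 markers higher than in CC_l and 0 of 5 past the threshold. In CC_l it was 71.6 CPM in replicate 1, the library with spermatid transcripts, and 10.7 CPM in replicate 2. The part of dividing cells in the Dnmt1 level was not tested. Dnmt3a, which was at 82.5, 112 and 37.96 CPM in C and 110.0, 103 and 77.7 CPM in H, differed by 0.32 ± 0.47 (SE). Dnmt3b and Dnmt3l spread so widely between mice of a group that their SE reached 0.86 and 1.23 in H, so that even a difference of -0.80 in Dnmt3b was within the error.

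Among the Tet genes, none was called. Tet1, the lowest of the tested members, was at 0.503 and 0.323 CPM in HHC and 2.87 and 3.29 CPM in CCC, with a log2 fold change of -2.89 ± 1.10 (SE) (adjusted p = 0.358 in edgeR), and at 4.28 and 1.997 CPM in HH and 1.28 and 0.393 CPM in CC_l (1.88 ± 1.03 (SE)). These levels came from few counts, the floor of 3 counts being up to 0.251 CPM. Tet2, which is mutated in clonal blood disorders, was at 40.3, 50.3 and 11.7 CPM in C and 25.96, 25.2 and 22.5 CPM in H, and Tet3 at 26.7 to 90.3 CPM in C and 61.1 to 65.1 CPM in H. In both genes the H mice were close together and lay between the low and the high C mice.

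Whether the difference after WL departed from that on HFD was tested as an interaction. At an adjusted p under 0.05, 0 of 59 members departed in the short arm, where 0 of all genes did in edgeR's test, and 0 in the long arm, where 0.815% of all genes did. At a nominal p under 0.05 there were 4 members in the short arm (Hdac9, Kdm2b, Kdm7a and Cbx7), against 11.8% of all genes, and 10 in the long arm, against 15.5%. By the nominal rule with the fold threshold, 1 member was called in the short arm (2.99% of all genes), 3 in the long arm (5.84%), 0 for HFD between the arms (0.913%) and 2 for WL between the arms (2.88%). DESeq2 at an adjusted p under 0.05 gave 1 member in the short arm, Cbx7, and 5 in the long arm, Cbx5, Cbx7, Hdac11, Kdm4c and Tet1. Over all 21464 tested genes it gave 400 in the short arm and 1215 in the long arm. Between the arms, the effect on HFD of 0 members and the effect after WL of 0 members differed at an adjusted p under 0.05. At a nominal p under 0.05 there were 1 and 5 (5.79% and 11.8% of all genes). DESeq2 at an adjusted p under 0.05 gave 0 and 2 (Kat6b and Sirt7), beside 39 and 294 of all 21464 genes.

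**Figure D5:**
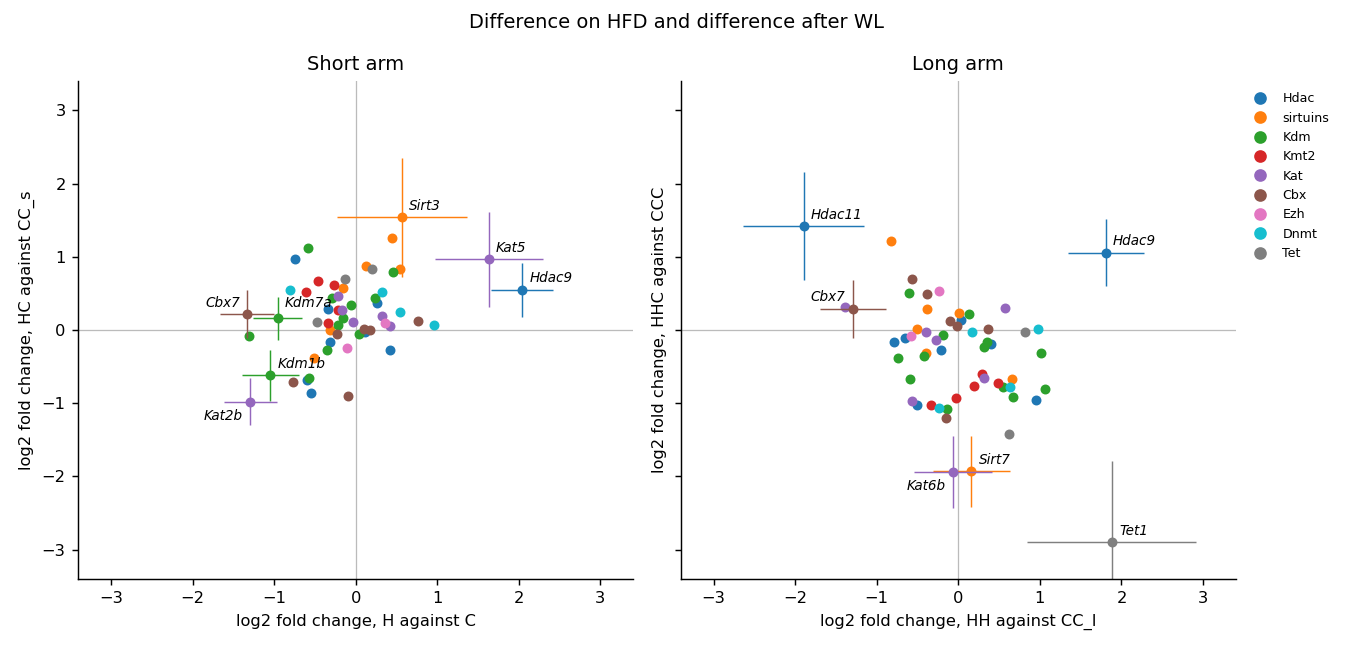
Log2 fold change on HFD (horizontal axis) and after WL (vertical axis) of tested members in the short arm (left) and the long arm (right), coloured by family; bars are SE and are drawn for members with a nominal p under 0.01 or an absolute log2 fold change above 1.5, and Kdm4d lies outside the axes. Hdac9 is to the right in both panels and above 0 after WL, Cbx7 is to the left in both and near 0 after WL, and Kat2b is low on both axes of the short arm.

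The 81 other genes of the same complexes and reactions, in 7 lists chosen with earlier results of these data known, held few calls. In H, 1 of 81 was called, against 6.49% of all genes, while 0 were called in HC (1.74%), 2 in HH (6.79%) and 1 in HHC (3.12%). At a nominal p under 0.05 there were 7 in H, against 17.1% of all genes, 0 in HC (8.69%), 6 in HH (17.4%) and 6 in HHC (10.7%). Ogt, the X-linked enzyme that adds O-GlcNAc and binds Tet proteins, fell in H (-1.95 ± 0.64 (SE), adjusted p = 0.125 in edgeR), with 731, 616 and 168 CPM in C and 105, 167 and 120.0 CPM in H, and its 2 highest values came from the C mice with much Malat1. Ring1, a ubiquitin ligase of the PRC1 complex that Cbx7 joins, fell in HH (-1.69 ± 0.54 (SE), adjusted p = 0.116 in edgeR), from 13.9 and 18.2 CPM in CC_l to at most 6.35 CPM in HH. It was lower in all H mice (7.53, 7.61 and 11.1 CPM) than in the C mice (18.1, 17.9 and 19.9 CPM), with a log2 fold change of -1.09 ± 0.43 (SE). Rnf2, another ligase of PRC1, did not follow it, with 0.57 ± 0.37 (SE) in HH, where the groups did not overlap, and 0.07 ± 0.30 (SE) in H, neither called. Tdg, the glycosylase that removes Tet products, rose in HH (1.86 ± 0.63 (SE)), with 12.3 and 4.45 CPM in HH and 2.01 and 2.62 CPM in CC_l. Setdb1, an H3K9 methyltransferase, fell in HHC (-1.62 ± 0.46 (SE)), with 12.6 and 12.01 CPM in HHC and 33.3 and 42.2 CPM in CCC. Neither Tdg nor Setdb1 had an adjusted p under 0.05 (0.137 and 0.259 in edgeR). Of the 8 PRC2 partners, 13 HDAC corepressor partners and 11 other acetyltransferases and acetyl readers, 0 were called in any of the 4 comparisons, as for the 10 COMPASS partners of the Kmt2 enzymes. With 1.74% to 6.79% of all genes called, lists of this size hold few or no calls in any case.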

How the data were processed

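Per the submitters' processing notes, which name FastQC 0.11.9, Trim Galore 0.6.6, HISAT2 2.2.1, Subread 2.0.1 and the mm10 build, the authors deposited 1 table of raw read counts per gene, and those counts were used as deposited. The annotation release, strand setting and pair counting are not given in the sources used here. Of the nonzero counts of a library, 74.5% to 89.2% were even. Gene lists and members were chosen with earlier results of these data known. Members were named where called, at an adjusted p under 0.05, highest or lowest of their family in level or fold change, without overlap in the same direction on HFD and after WL of an arm, or untested. Hdac1, Hdac4, Hdac5, Hdac7, Sirt4, Kdm1a, Kdm2a, Kdm3a, Kdm3b, Kdm5a, Kdm5b, Kdm7a, Kat2a, Kat7, Cbx1, Cbx3, Cbx6 and Dnmt3l met no part of this rule and were chosen after their values were seen. Partner genes were named where called, and Rnf2 was added after its values were seen. edgeR 4.0.16 (R 4.3.3) was fitted with quasi-likelihood to all 20 libraries with 8 groups, after TMM normalization and a filter on low counts, and p-values were adjusted by Benjamini-Hochberg over 21464 genes. CPM were computed from the same counts. The pipeline was tested on simulated data. DESeq2 1.42.0 served as an alternative. With 2 or 3 mice per group, p-values rest on a spread shared by all groups. Figures were drawn with matplotlib 3.10.9. Results for 1 member are not reported here, although it is included in the counts of members.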

Additional observations from a re-analysis of the deposited data

How the results depend on the processing

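The 23 log2 fold changes of single members with a nominal p under 0.05 in edgeR's test were recomputed under each alternative. Values picked in this way lie away from 0, so a kept direction says little, and 0 changed direction. The median over all tested genes in H did, from -0.15 to 0.29 without the 4 libraries with the most Malat1 and to 0.10 with nuclear-retained RNA as a covariate. In H, 5 members were called. The count was 3 with only the compared groups, 3 with halved counts and 3 at an adjusted p under 0.05 (Hdac9, Cbx7 and Kat2b each time), 8 without the 4 libraries with the most Malat1, and 3 to 6 without 1 mouse. In HC (0 called), the count was 1 without the filter on low counts (Sirt3), beside 1764 of 34443 genes. It was 1 with halved counts and 1 with only the compared groups (Kat2b both times), beside 292 of 18985 and 243 of 16034 genes. Without 1 mouse it was 0 to 1. In HH (2 called), it was 4 in DESeq2, 5 with nuclear-retained RNA as a covariate, 0 with only the compared groups, 0 at an adjusted p under 0.05, and 1 to 2 without 1 mouse. In HHC (2 called), it was 0 with only the compared groups, 0 without the 4 libraries, 0 at an adjusted p under 0.05, and 0 to 2 without 1 mouse, CCC replicate 2 being the one that took both calls. Over all 21464 tested genes, calls in HH went from 1458 to 2309 in DESeq2 and to 2948 with the covariate. With only the compared groups they were 1894 of 17667 genes in HH and 218 of 15807 in HHC. The fits with the covariate and without the 4 libraries were chosen after seeing the data. For the interactions (0 members), DESeq2 gave 1 in the short arm, 5 in the long arm and 2 for WL between the arms, the nominal rule 1, 3 and 2, and the fit without a filter 1 in the long arm and 2 for WL between the arms, with 0 to 0 without 1 mouse. Over all genes, DESeq2 gave 400, 1215 and 294 of 21464 for these interactions, in that order. The fit without a filter gave 1266 of 34443 in the long arm and 781 for WL between the arms. The cause of the changes between fits was not tested. Of 460 values of named members without 1 mouse, 414 kept their side of the threshold, 37 lost a call and 9 gained one. Of 184 values under the other alternatives, 157 kept it, 16 lost a call and 11 gained one. The 460 values come from leaving out each of the 20 libraries in turn, most of which lie outside the 2 compared groups. The share kept is therefore no measure of how far a call rests on its own mice. Tet1 and Kdm4d rest on few counts, and with 2 mice per group the long arm limits every call there.

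Replicate numbers are shared between groups. Same-numbered mice correlated at -0.167 to 0.192 in H and C and at -0.277 to 0.0593 in HC and CC_s. In the long arm each pair gave -0.193 in HH and CC_l and -0.26 in HHC and CCC. So few pairs cannot decide whether same-numbered mice share more than a number. With the replicate block, 3 members were called in H, against 5 without it, and the block moved no other count of members. Over all tested genes, calls in H went from 1392 to 1032 with the block.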
